A study of Mus musculus with 60 samples.

Results

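The genes described here encode the nuclear subunits of the mitochondrial oxidative phosphorylation system, and their transcript signals were followed in the mouse striatum after a single antidepressant injection. A gene was included where its annotated symbol began with Nduf, Sdha to Sdhd, Uqcr or Atp5, or with Cox4 to Cox8, and assembly factors named Ndufaf were left out. The rule found 79 of the 19057 genes with a symbol on the array, carried by 122 of its 45281 probes, and the probe with the highest mean over the 60 arrays stood for each gene. With complexes assigned by the start of the symbol, complex I was covered by 36 genes, complex II by 4, complex III by 7, complex IV by 16 and complex V by 16. 1 of the complex I genes, Ndufs5-ps, is annotated as a transcribed pseudogene.

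RNA came from the striatum (rostral caudate putamen and nucleus accumbens) of male C57BL/6J mice, which the labels give as 6 to 10 weeks old. Mice received an intraperitoneal injection of imipramine at 10 mg/kg, fluoxetine at 20 mg/kg, tianeptine at 20 mg/kg or saline, or were left naive, and tissue was taken at 1, 2, 4 or 8 h. The 20 groups held 3 arrays each, and each array held RNA pooled from 2 mice. No transgene or deletion was involved, and all groups were of the same strain.

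Oxidative phosphorylation passes electrons from NADH through complex I, and from succinate through complex II, to ubiquinone, then through complex III and cytochrome c to complex IV, where oxygen is reduced. Complexes I, III and IV pump protons across the inner mitochondrial membrane, and complex V uses the gradient to make ATP. Neurons depend on this supply to restore ion gradients after firing. Most subunits are encoded in the nucleus and a few in the mitochondrial genome, so the complexes are built from both sets of transcripts.

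Signals were log2 values, quantile normalised between arrays to a common median of 7.57. The 60 arrays lay on 10 chips of 6 arrays. Chips 1 to 3, 4 to 7 and 8 to 10 have identifiers with shared leading digits and are called chip sets here, although the labels do not say how the sets were run. They held 18, 24 and 18 arrays. Before normalisation the array medians were 6.71 to 7.41 in the first set, 7.36 to 8.76 in the second and 7.31 to 7.93 in the third. Of the medium spiny neuron markers of striatum, 8 of 9 lay above the common median. So did 9 of 9 astrocyte, 8 of 8 microglia and 5 of 7 cortical neuron markers, and such counts do not set striatum apart from other brain tissue. In bulk tissue, fewer cells of a type and less RNA per cell cannot be told apart.

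Most of the subunits gave high signals. Over the 79 genes the mean signal ran from 7.08 to 15.71 with a median of 13.07, and 58 of them (73.4%) exceeded the 90th percentile of all probes, 10.90. Signals of different probes do not rank transcript amounts, so the levels given here, by complex and for isoforms side by side, describe probes and not how much of each transcript there was. In complex I the means ran from 7.08 for Ndufs1, an iron-sulphur core subunit, to 15.09 for Ndufa13, an accessory subunit. In complex II they ran from 7.20 for Sdha, the flavoprotein that oxidises succinate, to 12.60 for Sdhc, a membrane anchor. In complex III they ran from 7.69 for Uqcrfs1, the Rieske iron-sulphur protein, to 14.69 for Uqcr10, a small subunit. In complex IV they ran from 7.11 for Cox8c to 15.24 for Cox4i1, the ubiquitous form of subunit 4. In complex V they ran from 8.53 for Atp5k to 15.71 for Atp5b, the catalytic beta subunit.

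**Figure D1:**
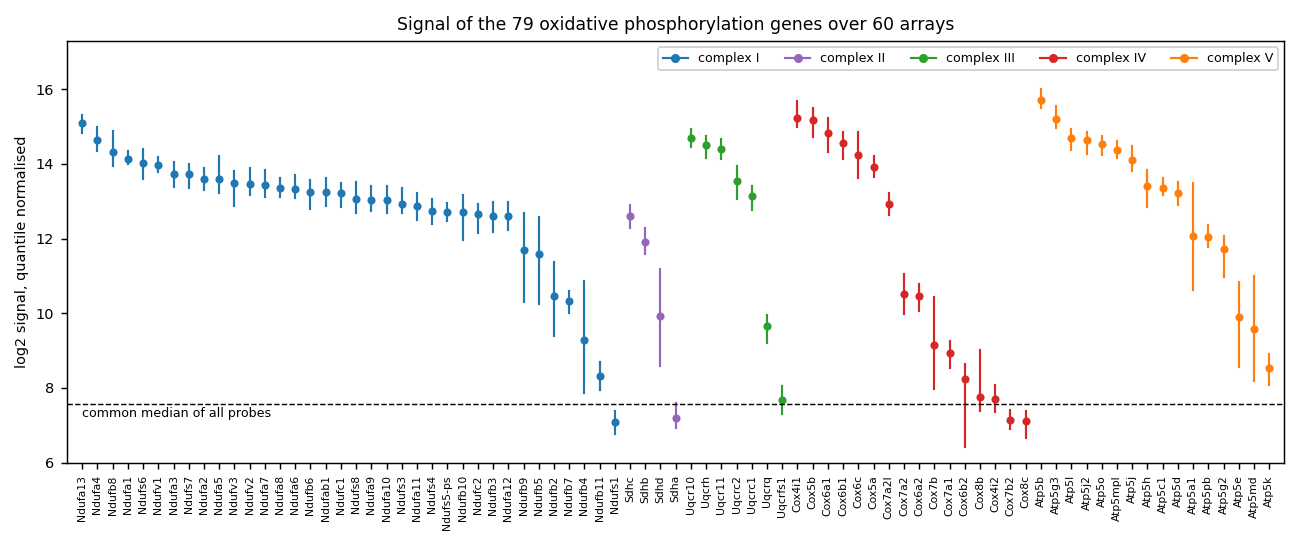
Mean log2 signal (points) of the 79 genes with the lowest and highest of 60 arrays (bars), in groups by complex, against the common median of all probes at 7.57 (dashed line). 4 genes lay at or below the median, and the longest bars include those of Ndufb4 (7.87 to 10.85) and Atp5a1 (10.63 to 13.49).

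4 genes lay at or below the common median, namely Ndufs1, Sdha, Cox7b2 and Cox8c. Ndufs1 ranged over the arrays from 6.77 to 7.38 and Sdha from 6.91 to 7.61. Each was represented by 1 probe. Both encode catalytic subunits without which their complexes do not work in any tissue, and their values here describe the probes only.

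Several subunits of complex IV exist as a ubiquitous form and a form restricted to some tissues. The means were 15.24 for Cox4i1 and 7.71 for Cox4i2, 14.84 for Cox6a1 and 10.45 for Cox6a2, 14.56 for Cox6b1 and 8.23 for Cox6b2, and 10.53 for Cox7a2 and 8.94 for Cox7a1. Cox8b, known from heart and skeletal muscle, had a mean of 7.75. Of the 7 restricted forms measured, 5 lay above the common median and 2, Cox7b2 and Cox8c, below it. All 6 ubiquitous partners measured lay above it. Among these partners was Ndufa4, which is counted under complex I here because of its symbol. Skeletal muscle markers had a median signal of 7.43 over 8 genes, 4 of which lay above the common median. Cox8a and Ndufa4l2 were not analysed here.

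Promoter sequences from RefSeq (build GRCm38.p6) were matched for 65 of the 79 genes, as windows from 250 bases before the transcription start to 50 bases after it. Nuclear respiratory factor 1 (NRF1), the ETS family factor GABPA (also called NRF2) and YY1 are known regulators of respiratory chain genes, so their letters were searched on both strands. The NRF1 letters were found in 16 genes (24.6%), against 5.19% of all 27025 genes with a promoter and 7.17% of the 17492 protein-coding ones. The ETS letters CCGGAAG were found in 16 genes (24.6%), against 9.93% of all genes and 12.9% of the protein-coding ones. The YY1 letters AAGATGGC were found in 10 genes (15.4%), against 3.19% and 3.57%. For SP1 (GGGCGG) the shares were 44.6%, 38.2% and 49.2%, and for NFY (CCAAT) they were 43.1%, 41.1% and 42.3%. No member gene with a promoter held the NRF1, ETS and YY1 letters together, and 9 held none of the 5. These last counts are given without a share over all genes and are a description only. The letters of different factors were counted separately, also where they overlapped. A match describes the letters and is not evidence of binding.

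The following windows of 30 bases show matches from each of the 5 complexes, 5′ to 3′ on the strand of the gene, with the matched letters in capitals. Where the letters lie on the other strand, their reverse complement is in capitals. Of the NRF1 windows this holds for Uqcrc1 and Atp5g3. The NRF1 letters leave 1 base free, the sixth of the capitals as searched and the fifth in those reverse complements.
Sdhd, NRF1, chr9:50603909-50603938, minus strand: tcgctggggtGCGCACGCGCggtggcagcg
Ndufb4, NRF1, chr16:37654540-37654569, minus strand: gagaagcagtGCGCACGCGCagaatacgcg
Uqcrc1, NRF1, chr9:108936643-108936672, plus strand: cttccttacaGCGCTTGCGCctcagactcc
Cox6a1, NRF1, chr5:115349101-115349130, minus strand: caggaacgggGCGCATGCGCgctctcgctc
Atp5g3, NRF1, chr2:73911295-73911324, minus strand: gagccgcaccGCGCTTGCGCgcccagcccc
Atp5md, ETS, chr19:47090627-47090656, minus strand: ggagggggcgtCTTCCGGtcgggccgagct
Atp5e, ETS, chr2:174464185-174464214, minus strand: tacggccacagCTTCCGGtagccgctcggc
Uqcrh, ETS, chr4:116075062-116075091, minus strand: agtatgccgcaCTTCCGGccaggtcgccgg
Ndufs7, YY1, chr10:80249462-80249491, plus strand: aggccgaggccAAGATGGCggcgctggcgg
Atp5j, YY1, chr16:84835046-84835075, minus strand: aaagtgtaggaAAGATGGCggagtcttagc
Of these, Sdhd, Ndufb4, Atp5md and Atp5e belong to the genes with the largest differences between chip sets below, while Uqcrc1, Cox6a1, Atp5g3, Uqcrh, Ndufs7 and Atp5j do not.

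The first comparison asked whether any of these genes differed between the naive, saline and drug groups. None of the 79 passed the moderated F test for condition (limma, Benjamini-Hochberg adjusted over all 45281 probes), against 0.307% of all probes, and none had an unadjusted p under 0.05 (6.97% of all probes). By the same test none passed for the condition by time interaction (0.00221% of all probes), for which none had an unadjusted p under 0.05 either (4.09%). The smallest condition p in complex V was that of Atp5pb, a stalk subunit of the ATP synthase (limma adjusted p = 0.733). By the same limma test it was in complex I that of Ndufs1 (adjusted p = 0.754), in complex IV that of Cox6b2 (0.756), in complex III that of Uqcrfs1 (0.855) and in complex II that of Sdhc (0.869). Over the 79 genes, condition accounted for a median of 3.21% of the variance between arrays and time for 1.83%, against 4.95% and 3.89% over all probes.

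Saline injection was compared with no treatment. None of the 79 genes passed on the average (0.00883% of all probes), at 1 h (0.011%), or at 2, 4 or 8 h (0% each). An unadjusted p under 0.05 was found for 1 of the 79 on the average (5.55% of all probes), 6 at 1 h (6.6%) and 0 at 2 h (5.14%), 4 h (4.39%) and 8 h (4.41%). These counts took chip as a random block and depended on that choice. With chip as a fixed block they were 5 on the average and 9, 3, 2 and 1 at 1, 2, 4 and 8 h. For the fixed block, shares of all probes are not given for this or the later comparisons. The median averaged difference was 0.04 log2 units, with 58 of 79 genes higher in saline, against a median of 0.00 and 49.8% over all probes. It was 0.04 as well over 76 mitochondrial ribosomal proteins (51 higher), a list added after the data were seen. Over 17 genes of the tricarboxylic acid cycle it was -0.04 (3 higher). Without normalisation between arrays the median of the 79 genes was -0.02, with -0.06 over all probes. Less the median of all probes, this averaged median was 0.04 both with and without normalisation. The medians at 1, 2, 4 and 8 h were 0.02, 0.07, 0.06 and 0.00. Less the median of all probes they rounded to the same values. Without normalisation they were then 0.09, -0.05, 0.02 and 0.07, so the agreement held for the average and not at single times. The smallest averaged p was that of Atp5c1, the gamma subunit that rotates within the ATP synthase. Its naive arrays had a lowest, median and highest signal of 13.20, 13.43 and 13.60, and its saline arrays of 13.18, 13.28 and 13.45. The ranges overlapped, and 11 of 12 saline arrays lay below the naive mean of their own time. As the gene was picked by its p, such counts here and below are descriptions and no separate support. The difference was -0.10 ± 0.05 (SE, 12 arrays a group, limma adjusted p = 0.890). Ndufa8, an accessory subunit of complex I, differed by 0.09 ± 0.05 (limma adjusted p = 0.898).

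The smallest p at a single time after saline belonged to Ndufc2, a small membrane subunit of complex I. At 1 h its saline arrays gave 12.86, 12.72 and 12.78 and its naive arrays 12.57, 12.15 and 12.55. All saline values lay above all naive values. The difference was 0.34 ± 0.11 (SE, n = 3 a group), and the gene did not pass (limma adjusted p = 0.613).

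Each drug was then compared with saline. Averaged over the times, none of the 79 genes passed for imipramine or fluoxetine (0% of all probes each) or for tianeptine (0.0265%). Unadjusted p-values under 0.05 were found for 2 genes with imipramine (4.74% of all probes), 2 with fluoxetine (4.09%) and 1 with tianeptine (5.62%). The median differences were -0.02, -0.01 and -0.02 log2 units. At single times none passed for imipramine or fluoxetine (0% at every time), or for tianeptine (0% at 1, 4 and 8 h and 0.00442% at 2 h). An unadjusted p under 0.05 was found at 1, 2, 4 and 8 h for 2, 1, 1 and 0 genes with imipramine (4.08%, 3.43%, 3.64% and 3.71% of all probes). With fluoxetine the counts were 1, 0, 4 and 1 (4.4%, 3.53%, 4.17% and 3.53%), and with tianeptine 5, 1, 0 and 1 (4.47%, 4.34%, 3.86% and 4.18%). With chip as a fixed block the averaged counts were 5 for imipramine, 2 for fluoxetine and 1 for tianeptine. The single-time counts were then 7, 0, 4 and 1 with imipramine. They were 4, 2, 4 and 2 with fluoxetine and 8, 2, 2 and 3 with tianeptine.

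For imipramine, Atp5c1 had the smallest averaged p. Its imipramine arrays had a lowest, median and highest signal of 13.16, 13.39 and 13.63, overlapping the saline range given above. It was 0.12 ± 0.05 higher (limma adjusted p = 1.00), with 10 of 12 imipramine arrays above the saline mean of their time. Since the same saline arrays entered both comparisons of this gene, they are not independent. Ndufa7, an accessory subunit of complex I, differed by -0.12 ± 0.06 (limma adjusted p = 1.00).

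For fluoxetine, the smallest averaged p was that of Atp5mpl, a small membrane protein of the ATP synthase. Its saline arrays ran from 14.25 over a median of 14.42 to 14.62, and its fluoxetine arrays from 14.22 over 14.31 to 14.53. The ranges overlapped, and the difference was -0.10 ± 0.04 (limma adjusted p = 1.00). Atp5j2, a membrane subunit of the same complex, differed by -0.09 ± 0.04 (limma adjusted p = 1.00).

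For tianeptine it was Sdhc, which holds the succinate dehydrogenase in the membrane. The saline arrays ran from 12.41 over a median of 12.69 to 12.89, and the tianeptine arrays from 12.35 over 12.54 to 12.74. The ranges overlapped, and 11 of 12 tianeptine arrays lay below the saline mean of their time. The difference was -0.13 ± 0.05 (limma adjusted p = 0.735). Ndufs5-ps differed by -0.10 ± 0.05 (limma adjusted p = 0.894).

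The drugs were also set against each other on the average over times, as 3 pairs. None of the 79 genes passed between fluoxetine and imipramine (0.00442% of all probes), tianeptine and imipramine (0.115%) or tianeptine and fluoxetine (0%). An unadjusted p under 0.05 was found for 3, 2 and 1 of them (5.49%, 7.61% and 4.82% of all probes). With chip as a fixed block it was found for 5, 2 and 2. The medians of these differences were 0.00, 0.01 and 0.00 log2 units. The smallest p were those of Atp5pb between fluoxetine and imipramine (0.11 ± 0.05, limma adjusted p = 0.867), Ndufb8, an accessory subunit of complex I, between tianeptine and imipramine (-0.13 ± 0.06, limma adjusted p = 0.594) and Ndufs1 between tianeptine and fluoxetine (0.14 ± 0.06, limma adjusted p = 1.00).

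A p that misses the threshold does not show that the genes were unaltered, so the intervals set what the data could still hold. With chip as a random block, the 95% interval of the averaged drug difference stayed within 0.5 log2 units of 0 for 76 of 79 genes with imipramine, 76 with fluoxetine and 75 with tianeptine. With chip as a fixed block it did so for all 79 genes with each drug. At single times the random-block intervals stayed within 0.5 for 64 to 69 of 79 genes over the 12 drug comparisons.

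**Figure D2:**
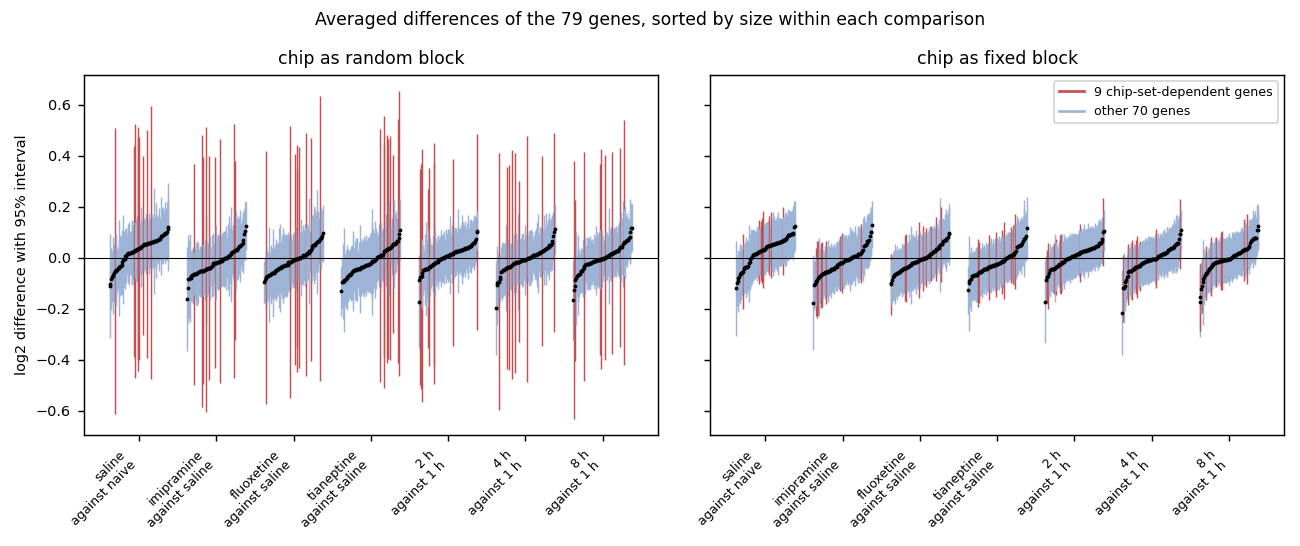
Averaged log2 difference (points) with its 95% interval (lines) of the 79 genes in 7 comparisons, sorted within each comparison, with chip as a random block (left) and as a fixed block (right). The 9 genes in red, which differed most between chip sets, have wide intervals on the left, and on the right the intervals of all 79 genes stay within 0.5 of 0.

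Time was tested over all conditions. These include the naive mice, which had no injection, so the time comparisons do not isolate time after injection. The arrays of 1 and 4 h all lay at positions A, C and E of their chips and those of 2 and 8 h at positions B, D and F, so that differences of 2 or 8 h from 1 h and differences between these positions cannot be told apart. Comparisons of conditions at 1 time were not touched by this. None of the 79 genes passed the F test for time (limma, 1.46% of all probes), or that for time in naive mice alone (0.00883%), and 2 and 1 genes had an unadjusted p under 0.05 (10% and 4.65% of all probes). The smallest time p by complex were those of Ndufs3, a core subunit of complex I (limma adjusted p = 0.454), Atp5j of the ATP synthase stalk (0.489), Uqcrq of complex III (0.526), Cox8c (0.648) and Sdhc (0.703). Against 1 h, none passed at 2 h (0.0155% of all probes), 4 h (0.152%) or 8 h (1.33%). Unadjusted p-values under 0.05 were found for 1, 3 and 4 genes (5.79%, 6.02% and 10.2% of all probes). With chip as a fixed block they were found for 2, 5 and 7. The medians were 0.01, -0.01 and 0.00 log2 units. At 8 h, the smallest p was that of Uqcrq, a small subunit of complex III that binds ubiquinone, with a lowest, median and highest signal of 9.29, 9.61 and 9.86 at 1 h and of 9.56, 9.72 and 9.95 at 8 h. The ranges overlapped. The difference was 0.12 ± 0.05 (15 arrays a time, limma adjusted p = 0.273).

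Ndufa10, an accessory subunit of complex I, was the next by p. It ran from 12.71 over a median of 12.96 to 13.41 at 1 h and from 12.69 over 13.04 to 13.33 at 8 h, again with overlap, and differed by 0.12 ± 0.05 (limma adjusted p = 0.343). On signals turned into z-scores within each chip it passed (limma adjusted p = 0.0361). That was the 1 case in which any of the 79 genes passed a condition or time comparison under the settings tried. The 8 h arrays lay at other positions than the 1 h arrays in this setting too. The z-score fit held no chip term and did not count the chip means and SDs already removed, which can make its p-values too small. With chip as a fixed block the smallest limma adjusted p of the 79 genes for 8 h against 1 h was 0.152.

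The chip on which an array lay accounted for more of the variance of these genes than condition or time did. Of the 79 genes, 66 (83.5%) passed the F test for chip with the group means in the model, against 38.3% of all probes and 82.3% of the probes above the 75th percentile of signal, and 68 had an unadjusted p under 0.05 (45.3% of all probes). The share among the genes was thus near that of other bright probes. 32 of 36 genes passed in complex I, 4 of 4 in complex II, 6 of 7 in complex III, 13 of 16 in complex IV and 11 of 16 in complex V. The smallest chip p by complex were those of Ndufb4, Sdhd, Uqcrc2, Cox7b and Atp5e. The 13 genes that did not pass were Ndufa1, Ndufb11, Ndufs1, Ndufs3, Uqcrfs1, Cox7a2l, Cox7b2, Cox8c, Atp5g3, Atp5j2, Atp5l, Atp5mpl and Atp5o. In the median gene, chip accounted for 54.5% of the variance between arrays, and the chip set alone for 45.1%. Over all probes the values were 25.9% and 10.1%. The range between the means of the chip sets had a median of 0.23 in these genes. It was 0.24 in probes above the 75th percentile of signal and 0.11 in all probes.

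9 genes differed by 1 log2 unit or more between the means of the 3 chip sets, which is given as a description. That was 11.4% of the 79 genes, against 1.27% of all probes and 3.09% of the probes above the 75th percentile of signal. They were Ndufb2, Ndufb4, Ndufb5 and Ndufb9, which are accessory subunits of the membrane arm of complex I, Sdhd, a membrane anchor of complex II, Cox7b of complex IV, and Atp5a1, Atp5e and Atp5md of the ATP synthase. Just inside the limit was Ndufb2 with 1.26, and just outside it were Ndufb10 with 0.72, Cox7a2 with 0.61 and Uqcrc2 with 0.54. The other 70 genes had a median range of 0.21.

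The largest range was that of Atp5md, a small membrane subunit of the ATP synthase. Its lowest, median and highest signals were 9.47, 9.88 and 10.41 in chips 1 to 3, 8.18, 8.48 and 8.79 in chips 4 to 7, and 10.29, 10.76 and 10.99 in chips 8 to 10. The arrays of chips 4 to 7 lay below all others. Atp5a1, the alpha subunit of the catalytic head, gave 12.12, 12.39 and 12.77, then 10.63, 11.01 and 11.49, and then 12.91, 13.13 and 13.49. Its 3 chip sets did not overlap at all. Ndufb4 gave 9.07, 9.50 and 9.76, then 7.87, 8.36 and 8.61, and then 10.03, 10.38 and 10.85, also without overlap.

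Atp5e, the epsilon subunit of the central stalk, gave 10.39, 10.54 and 10.73 in chips 1 to 3, 8.56, 8.92 and 9.25 in chips 4 to 7, and 10.32, 10.65 and 10.83 in chips 8 to 10. Only the middle set stood apart. Sdhd gave 9.51, 9.91 and 10.38, then 8.58, 9.16 and 9.74, and then 10.55, 10.88 and 11.18, and here the first pair of sets overlapped. All 9 genes had their lowest mean in chips 4 to 7 and their highest in chips 8 to 10, as did most of the 574 such probes on the array, of which 569 were lowest in chips 4 to 7 and 567 highest in chips 8 to 10. Among the other 70 genes the lowest mean lay in chips 8 to 10 for 41, in chips 1 to 3 for 19 and in chips 4 to 7 for 10.

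**Figure D3:**
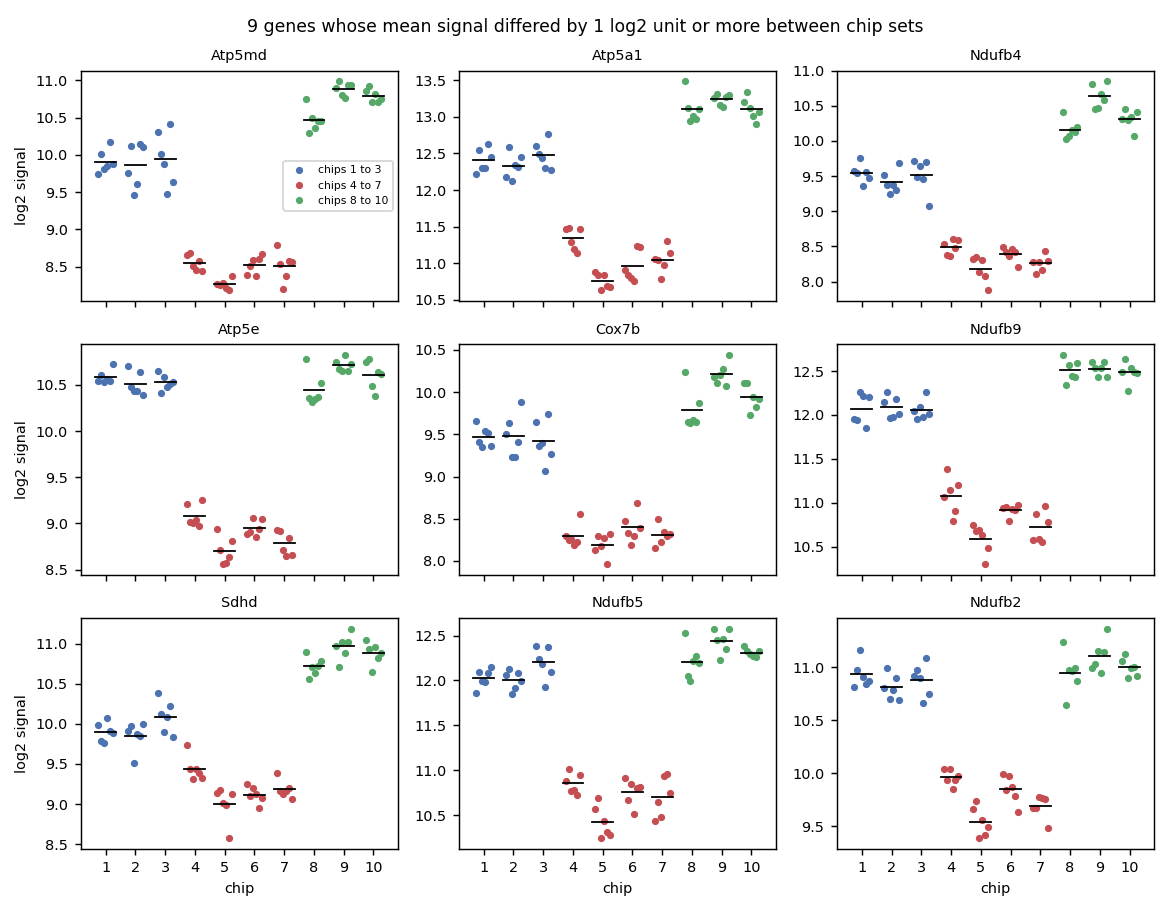
Log2 signal of each of the 60 arrays (points) by chip, with the mean of each chip (black lines), for the 9 genes with a range of 1 or more between chip set means. In all 9 panels the mean of chips 4 to 7 (red) is lowest. Chip means within a set differ by at most 0.58, against 1.26 to 2.26 between sets.

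The 9 genes also moved together within chips. After removal of chip and group means, the correlation between pairs of them had a median of 0.44 over the 60 arrays, against 0.06 among the 59 other genes with a mean above 9 and -0.08 between the 9 and those 59. The highest of all 3081 pairs was that of Atp5a1 with Atp5md (r = 0.84). The points of these correlations share libraries and chips, and what moved the 9 genes together was not tested. For all pairs the quartiles were -0.13, 0.02 and 0.17, and for pairs within a complex the median was 0.02 as well.

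The same pattern could be looked for in other probes of the same genes. 31 of the 79 genes had further probes, 43 in all, and 5 of these had a range of 1 or more between chip sets. Atp5a1 had a second probe with means of 9.44, 9.44 and 9.25 in the 3 sets, a range of 0.19 where the reported probe had 2.13. Ndufa5, an accessory subunit of complex I, was the reverse case. Its reported probe had means of 13.40, 13.70 and 13.63, and its dimmer probe had means of 10.86, 9.61 and 11.69, a range of 2.07. Dimmer probes of Ndufc2, Ndufs4, Ndufb10 and Atp5pb had ranges of 1.25, 1.07, 1.01 and 1.15, while their reported probes had 0.07, 0.30, 0.72 and 0.13. In Ndufb10 both probes thus dropped in chips 4 to 7. Ndufs4 had 4 probes, of which the reported one was highest in chips 4 to 7 (12.57, 12.87 and 12.69 in the 3 sets) and the other 3 were lowest there (11.71, 10.97 and 12.04, then 12.79, 12.47 and 12.85, then 12.24, 12.01 and 12.31). Whether these probes read the same transcripts was not tested. For Ndufb2 and Atp5md the second probe lay below the common median in its mean signal. Ndufb4, Ndufb5, Ndufb9, Sdhd, Cox7b and Atp5e had 1 probe each.

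**Figure D4:**
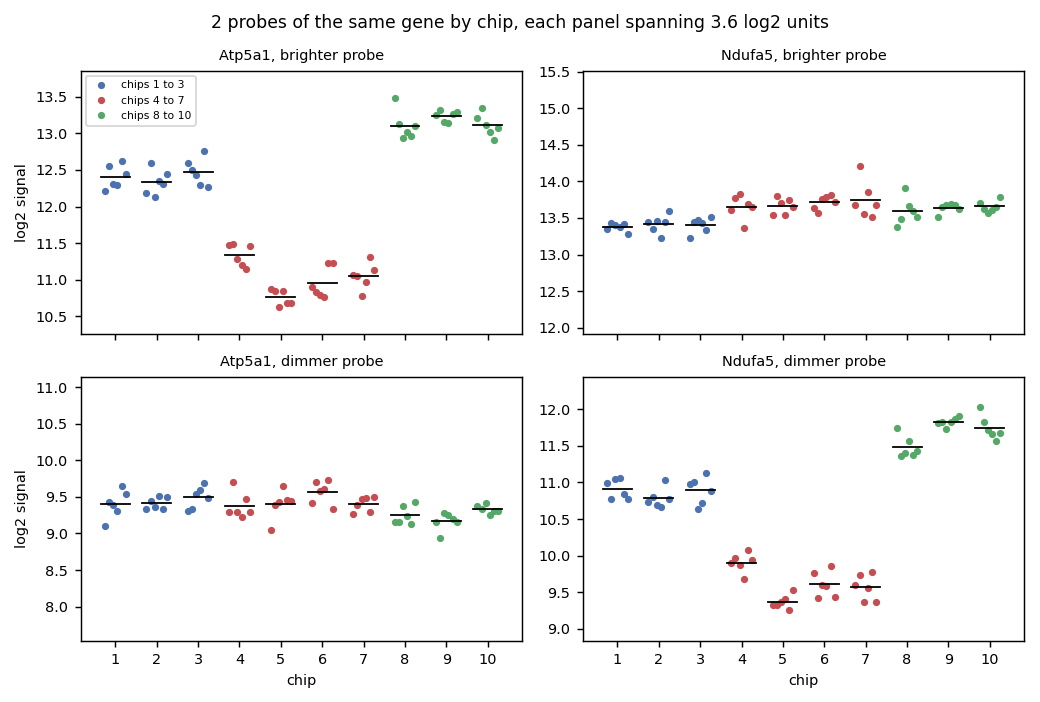
Log2 signal of each array (points) by chip with chip means (lines) for both probes of Atp5a1 (left) and Ndufa5 (right), every panel spanning the same height. The brighter probe of Atp5a1 dropped in chips 4 to 7 while its dimmer probe did not, and for Ndufa5 only the dimmer probe dropped.

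Beyond the chip sets, probes of a gene tracked each other weakly. For the 23 further probes with a mean above 9, the correlation with the reported probe, less chip and group means, had a median of 0.19 and ran from -0.14 to 0.58. 4 of the 23 exceeded 0.3.

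For single-time comparisons the chip sets were unevenly spread, and 4 of the 20 groups missed a set. The naive group at 2 h and the saline group at 1 h had no array in chips 8 to 10, and the imipramine group at 4 h and the fluoxetine group at 8 h had none in chips 1 to 3. The other 16 groups had 1 array in each set. The saline arrays of Atp5md at 1 h gave 9.76 on chip 2, 8.50 on chip 4 and 8.57 on chip 7, and its naive arrays at 1 h gave 10.41 on chip 3, 8.79 on chip 7 and 10.71 on chip 10. The difference was -0.68 ± 0.58 with chip as a random block and -0.34 ± 0.16 with chip as a fixed block (limma adjusted p = 0.906 and 0.618).

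Over the 9 genes the median difference of saline from naive at 1 h was -0.27 with the random block and 0.01 with the fixed block. Over the other 70 genes it was 0.04 and 0.02. For saline against naive at 2 h the 9 genes had 0.24 and 0.02, for tianeptine against saline at 1 h 0.38 and -0.03, for imipramine against saline at 1 h 0.22 and -0.13, for fluoxetine against saline at 1 h 0.21 and -0.01, for imipramine against saline at 4 h -0.35 and -0.04, and for fluoxetine against saline at 8 h -0.23 and -0.02. Each of these 7 comparisons held a group without one of the sets, and their medians ran from -0.35 to 0.38 with the random block and from -0.13 to 0.02 with the fixed block. In the 9 single-time comparisons of groups that held all sets they ran from -0.11 to 0.15 and from -0.08 to 0.09. Among these were saline against naive at 4 h (0.15 and 0.09) and imipramine against saline at 2 h (0.13 and -0.02). What part the missing sets had in these values was not tested. The averaged differences of the same 9 genes had a median SE of 0.22 with the random block and 0.06 with the fixed block, and none of the 9 genes passed in either fit.

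2 restricted isoforms stood out by single arrays. Cox6b2, known from testis, ran from 6.43 to 8.65 over the 60 arrays. The lowest value lay in 1 imipramine array at 4 h (the other 2 gave 8.24 and 8.38) and the next lowest, 7.15, in 1 tianeptine array at 2 h. Both arrays lay on chip 7, whose other arrays gave 8.13 to 8.36. The imipramine difference of Cox6b2 at 4 h, -0.56 ± 0.22 (limma adjusted p = 0.999), rested on the 1 imipramine array. The saline arrays at 4 h gave 8.17, 8.14 and 8.35. The residual SD of Cox6b2, 0.26 less chip and group means, was the largest among the 79 genes.

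Cox8b had its highest value, 9.03, in 1 tianeptine array at 1 h and its next highest, 8.30, in 1 fluoxetine array at 1 h. These were also the 2 arrays with the highest mean of 6 choroid plexus markers, 11.27 and 10.45, and in them Ttr, the transthyretin gene of the choroid plexus, gave 15.86 and 15.79. The next arrays by that mean (10.14 and 10.02, saline at 2 and 4 h) had Cox8b signals of 7.81 and 7.79. Over the 60 arrays Cox8b followed the marker mean with r = 0.65, and without the 2 arrays farthest from the median of that mean with r = 0.36. Less chip and group means, the values were 0.72 and 0.60. The marker mean, of which 5 of 6 genes lay above the common median, ran from 8.44 to 9.82 in naive, 8.53 to 10.14 in saline, 8.64 to 9.54 in imipramine, 8.64 to 10.45 in fluoxetine and 8.63 to 11.27 in tianeptine arrays. The part of choroid plexus tissue in the Cox8b signal was not tested.

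**Figure D5:**
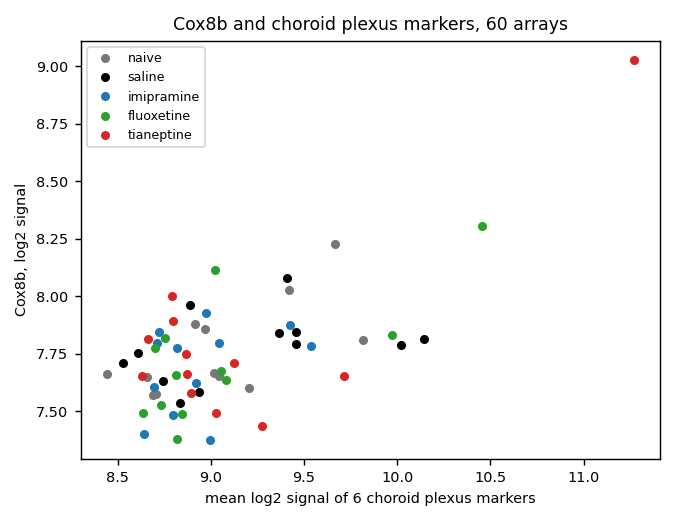
Log2 signal of Cox8b against the mean log2 signal of 6 choroid plexus markers, 1 point for each of 60 arrays, coloured by condition. The 2 arrays highest in the marker mean are also the 2 highest in Cox8b, and the other 58 show r = 0.36.

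The genes whose signal, less chip and group means, followed the mean of the 79 genes most closely over the 60 arrays were Rps27l (r = 0.76), Clptm1 (0.69), Mical1 (0.68), Bex3 (0.64), Iscu (0.64), Mpv17l2 (0.63), Ciapin1 (0.61), Spag7 (0.61), Vmac (0.60) and Pdcd5 (0.60). That mean varied little, with an SD of 0.02 log2 units, and the genes were picked as the highest of all named probes.

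Related mitochondrial genes were tested in the same fits. Assembly factors passed for time in 2 of 40 genes (limma, 1.46% of all probes). Sdhaf1, which helps to build complex II, had median signals of 10.76, 10.66, 10.88 and 10.94 at 1, 2, 4 and 8 h (adjusted p for time 0.00917), and was 0.21 ± 0.06 higher at 8 h than at 1 h (limma adjusted p = 0.0313). Its partners in complex II, Sdha, Sdhb, Sdhc and Sdhd, did not pass. Tmem70, an assembly factor of the ATP synthase, had median signals of 10.12, 10.15, 10.08 and 9.91 (limma adjusted p for time 0.0388). Both passed with chip as a fixed block too (limma adjusted p = 0.000587 and 0.0324). In neither fit can differences of 2 or 8 h from 1 h be told apart from array position.

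Of 17 measured genes of the tricarboxylic acid cycle, Cs, the citrate synthase, passed for condition (limma adjusted p = 0.0431, 0.307% of all probes) and no gene passed for time. Its median signal was 12.57 in naive, 12.39 in saline, 12.54 in imipramine, 12.43 in fluoxetine and 12.42 in tianeptine arrays. It did not pass with chip as a fixed block (limma adjusted p = 0.0840). Of 13 other carriers and linked dehydrogenases, Dhodh, the dihydroorotate dehydrogenase that feeds electrons to ubiquinone, was 0.18 ± 0.05 higher at 8 h than at 1 h (limma adjusted p = 0.0483, 1.33% of all probes), and no gene of the list passed for condition or time. Of 76 mitochondrial ribosomal proteins, a list added after the data were seen, Mrps6 alone passed for time (limma adjusted p = 0.0305), a share near the 1.46% of all probes. The limit of array position holds for Dhodh at 8 h and for the time test of Mrps6 as well. None of 16 regulators of mitochondrial biogenesis and none of 14 glycolytic genes passed for condition or time.

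8 of the 13 mitochondrially encoded subunits were measured, with a median signal of 15.19, and none passed for condition or time. 3 of them had a range of 1 or more between chip sets, namely ND4L (3.05), ND6 (1.80) and COX2 (1.09), against 1.27% of all probes and 3.09% of those above the 75th percentile of signal.

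Among the markers of other cell types, 1 of 9 astrocyte markers and 1 of 9 oligodendrocyte markers passed for condition (0.307% of all probes), and 1 of 8 endothelial markers passed for time (1.46%). Gjb6, a gap junction gene of astrocytes, had median signals of 11.98 in naive, 12.22 in saline, 12.23 in imipramine, 12.27 in fluoxetine and 12.44 in tianeptine arrays (limma adjusted p = 0.00161). Opalin, a gene of myelinating oligodendrocytes, had medians of 12.42, 12.28, 12.22, 12.10 and 11.80 in the same order (limma adjusted p = 0.00595). The averaged difference of tianeptine from saline was 0.17 for Gjb6, against a median of 0.005 over the astrocyte markers, with 5 of 9 higher. For Opalin it was -0.28, against a median of -0.01 over the oligodendrocyte markers, with 2 of 9 higher. At 8 h against 1 h, 2 oligodendrocyte markers passed (1.33% of all probes), 1 of them higher. Cldn5, a tight junction gene of endothelium, had medians of 11.66, 11.63, 11.74 and 11.29 at 1, 2, 4 and 8 h (limma adjusted p = 4.77e-05). Its difference of 8 h from 1 h was -0.33, against a median of -0.04 over the endothelial markers, with 3 of 8 higher. Array position cannot be told apart from 8 h in these differences. None of the medium spiny neuron, cortical neuron, parvalbumin interneuron, microglia, mural cell, choroid plexus or skeletal muscle markers passed for condition or time.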

How the data were processed

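RNA of mouse striatum was measured on 60 Illumina MouseWG-6 arrays, 3 in each of 20 groups, with RNA of 2 mice pooled per array as the methods state. Precision is limited by how many arrays there were. The labels do not say whether the arrays of a group came from separate experiments, so p-values measure the spread between these arrays. The deposited log2 signals were made by the authors with BeadStudio v3.0 and the beadarray package v1.10.0, and the methods name a background subtraction before the quantile normalisation without saying whether this table was written before or after it. A second deposited table holds the log2 values after the authors' quantile normalisation and served as an alternative. All columns of both tables were used.

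The log2 signals were quantile normalised and fitted with limma 3.58.1 in R 4.3.3, with 20 group means, chip as a random block (consensus correlation 0.201) and moderated variances. P-values were adjusted by the Benjamini-Hochberg method over 45281 probes within each comparison, and a gene passed at 0.05. Errors after ± are standard errors and intervals are 95% intervals. The chip test took chip as a fixed factor beside the groups. The fit was tested on simulated data with known differences. Probes were named through the platform annotation, in which 34885 probes had 1 gene symbol, 18 several and 10378 none. The genes and lists were chosen with earlier results of these data known. Genes named in the text were, in each complex, the brightest, the dimmest and those with the smallest p for condition, time and chip, and for each averaged comparison those passing or else the 2 with the smallest p. The isoform pairs and the genes with a chip set range of 1 or more were named too. Cox6b2, Cox8b in single arrays, the second probes and the genes of related lists that passed were singled out after their values were seen. The alternatives were other normalisations, the authors' table, other uses of chip, z-scores within chips and within chip sets (the methods name z-scores by hybridisation batch, and the labels do not identify the batches), the array position on the chip, the replicate number as a block, an unmoderated fit, dim probes left out, the groups compared alone, the mean of all probes of a gene, and each array left out in turn.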

Additional observations from a re-analysis of the deposited data

How the results depend on the processing

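For the 30 condition and time tests, 0 of the 79 genes passed under those of the 14 other settings that could be applied to them and with each of the 60 arrays left out, with 1 exception. On z-scores within each chip, fitted without a chip term, 1 gene (Ndufa10) passed at 8 h against 1 h (limma adjusted p = 0.0361). The chip test called 66 genes, 64 to 67 with an array left out and 67 to 79 under the other settings that could be applied to it. Without normalisation between arrays, 28 in place of 9 genes had a chip set range of 1 or more, and the set medians of all probes were then 7.15, 7.86 and 7.53. The correlation of Cox8b with choroid plexus markers, 0.65, was 0.36 without 2 arrays. These last 2 settings, the chip set as a factor and the z-scores within chip sets were chosen after seeing the data.

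Without normalisation the averaged difference between saline and naive had a median of -0.02 over the 79 genes and -0.06 over all probes, against 0.04 and 0.00 after it. Single-time medians then ran from -0.47 to 0.46, and those of all probes from -0.45 to 0.39.

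Replicate numbers followed the chip sets in part: 13 of 18 arrays of chips 1 to 3 had number 1, 15 of 24 of chips 4 to 7 number 2 and 12 of 18 of chips 8 to 10 number 3. Deviations of arrays with the same number correlated with a median r of 0.22 (-0.62 to 0.64) and those with different numbers with -0.12. Since not every pair exceeded 0.1, the numbers were not taken to pair the samples. With the replicate number as a block 0 genes passed in these tests, and the median difference between saline and naive was 0.03 in place of 0.04. With position on the chip as a factor 0 genes passed too. That fit adjusts within positions A, C and E and within B, D and F, while the difference between these 2 sets of positions could not be fitted beside the groups. Single-time comparisons rest on 3 arrays a group, and no measure of signal over background was used for the dim probes.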
